A study of Mus musculus with 7 samples.

Results

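The neuregulins are growth factors with an EGF-like domain, and the ErbB proteins are the receptor tyrosine kinases that they and the other EGF-family ligands act on. The 8 genes described here are the ligands Nrg1, Nrg2, Nrg3 and Nrg4 and the receptors Egfr, Erbb2, Erbb3 and Erbb4. They were chosen by name, with earlier results of these data known, and each has 1 line in the authors' deposited table of 17732 genes. All 8 also have an adjusted p-value, as do 13060 genes in all.

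RNA came from wild-type male mice of the 129SvEv strain, from medial prefrontal cortex taken after retrieval of a remote memory. The labels name 3 libraries CFC and 4 libraries SC. They do not spell out these names, the mice's ages or the time of sampling, and they do not say whether each library is a separate mouse, so the errors below measure the spread between libraries. The files hold 1 comparison of both groups and a mean over libraries for each gene, so values and depths of single libraries were not analysed here. No source says which group is the numerator of a fold change, so each difference carries the sign of the authors' deposited table and neither group is called higher. Values written as x ± y are log2 fold changes with their standard error (SE), both as deposited.

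Most neuregulins are made as membrane-bound precursors that proteases cut to release or expose the EGF-like domain. That domain binds ErbB3 and ErbB4, which then pair with another ErbB receptor. ErbB2 has no known ligand of its own and serves as a partner, ErbB3 has a weak kinase, and the EGF receptor responds to EGF and its relatives. In the cortex ErbB4 is best known from GABAergic interneurons, among them the parvalbumin cells, and ErbB3 from the oligodendrocyte lineage. In bulk tissue, fewer cells of a type and less RNA per cell cannot be told apart.

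None of these genes passed the authors' test of a difference between the groups. In the authors' deposited table, 0 of the 8 members had an adjusted p-value under 0.05 (DESeq2's Wald test), against 0.513% of all genes tested. The unadjusted p-value was under 0.05 for 2 members, Erbb3 and Nrg4, where 8.10% of all genes tested lay under it. With a t distribution of 5 degrees of freedom neither stayed under 0.05 (0.0797 for Erbb3 and 0.106 for Nrg4), and after regression of the Wald score on length, GC content and abundance Erbb3 stood at 0.0538. The log2 fold change was positive for 7 of the 8, of which Egfr turned negative after the same regression, and for 49.4% of all genes tested. The median over the 8 was 0.10, beside -0.0017 over all genes. These 8 values come from the same libraries and are not independent of each other.

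The genes lie on 7 chromosomes, and their positions were read from GENCODE M21 on GRCm38, the assembly of the mm10 build named in the submitters' processing notes. Nrg1 spans chromosome 8 from 31814551 to 32884029 on the minus strand and has 18 annotated transcripts, the largest number among the 8. Nrg2 spans chromosome 18 from 36017652 to 36197380, also on the minus strand. Nrg3 occupies chromosome 14 from 38368952 to 39473088 on the minus strand, and Nrg4 occupies chromosome 9 from 55220222 to 55326844 on the minus strand. Egfr and Erbb2 share chromosome 11 and the plus strand, the former from 16752203 to 16918158 and the latter from 98412470 to 98437716. Erbb3 lies on chromosome 10 from 128567523 to 128589652 on the minus strand and has 1 annotated transcript. Erbb4 runs over chromosome 1 from 68032186 to 69108059 on the minus strand. The annotated exons of Nrg1 share 482 bases with the long noncoding RNA Gm26578 on the opposite strand. Those of Nrg4 share 368 bases with Fbxo22 and 177 with the pseudogene Gm15625, and those of Erbb2 share 9 bases with Mien1, all on the opposite strand. The strand setting of the authors' counting is not given in the sources used here, so reads from those shared bases cannot be assigned to 1 gene.

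The members differed widely in level. Mean normalized counts in the authors' deposited table ran from 39.4 for Erbb2 to 2702 for Erbb4. Because a long transcript yields more fragments, levels were compared only after division by the summed length of the annotated exons. Intervals beside them are approximate 95% intervals of the mean over 7 libraries, computed from the deposited standard errors, and they leave out any error in the gene models.

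Erbb4, the neuregulin receptor of interneurons, had the highest level, 219 normalized counts per kilobase (interval 209 to 229). Nrg3, a neuron-enriched ligand of ErbB4, followed at 196 counts per kilobase (187 to 206). Nrg2 stood at 60.0 counts per kilobase (54.9 to 65.7). Egfr had 44.4 counts per kilobase (41.4 to 47.7) and Nrg1 had 41.1 (38.5 to 43.9). The intervals of Egfr and Nrg1 overlapped, so their order is not resolved. Erbb3 had 25.9 counts per kilobase (20.5 to 32.8), the widest interval for its level. Erbb2 at 7.57 counts per kilobase (6.20 to 9.23) and Nrg4 at 6.67 (5.55 to 8.0) were lowest, and their intervals overlapped too.

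**Figure D1:**
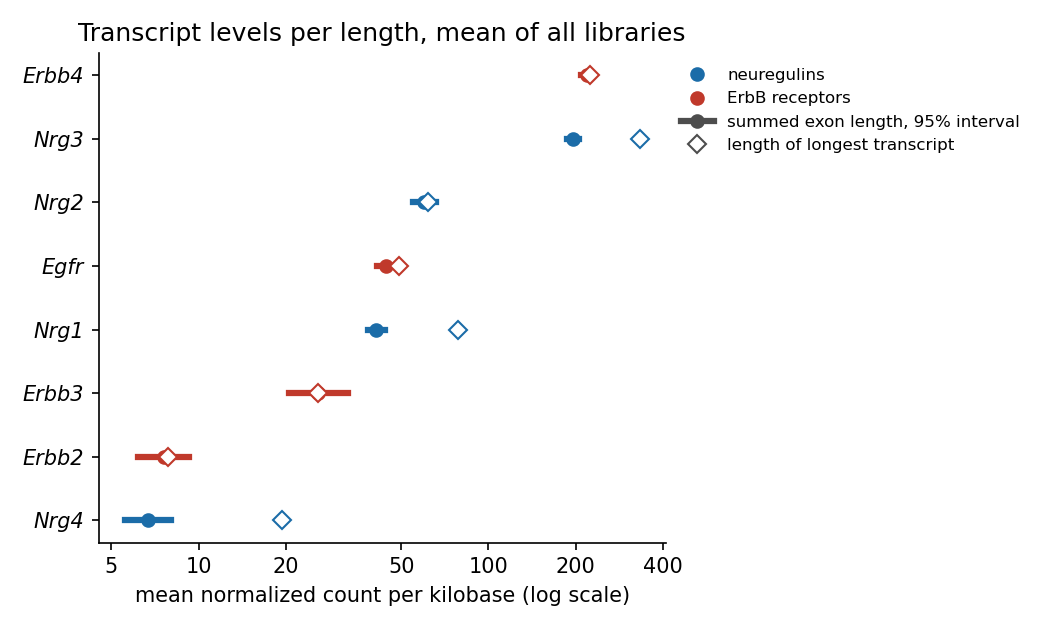
Mean normalized count per kilobase (log scale) of each gene over the 7 libraries. Filled points with bars use the summed exon length with a 95% interval, and open diamonds use the longest annotated transcript. Erbb4 and Nrg3 sit far to the right and Erbb2 and Nrg4 to the left, and the diamonds of Nrg1, Nrg3 and Nrg4 lie apart from their points.

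Among the receptors, the level per kilobase of Erbb4 was 4.92 times that of Egfr, 8.44 times that of Erbb3 and 28.9 times that of Erbb2. With the length of the longest transcript in place of summed exons these ratios were 4.55, 8.66 and 28.5. Among the ligands, the level per kilobase of Nrg3 was 3.27 times that of Nrg2, 4.78 times that of Nrg1 and 29.4 times that of Nrg4. By the longest transcript they were 5.41, 4.25 and 17.3. The order of the ligands depends on the gene models. By the longest transcript Nrg1 moved from 41.1 to 78.6 counts per kilobase, above Nrg2 at 61.7, and Nrg3 moved from 196 to 334, above Erbb4 at 224. Nrg4 moved from 6.67 to 19.3 and then exceeded Erbb2 at 7.86. As a reference, Gad1, which makes GABA in interneurons, had 632 counts per kilobase by summed exons and 1340 by the longest transcript. Slc17a7, the vesicular glutamate transporter of excitatory neurons, had 6438 and 11270.

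The ligands were compared between the groups next. For Nrg1, which is needed for myelination of peripheral nerve and is made by many neurons, the authors' deposited table gave 0.06 ± 0.10 (SE, adjusted p = 0.998). Its 95% confidence interval, from -0.13 to 0.25, corresponds to a ratio between 0.912 and 1.19. Nrg3 had 0.07 ± 0.07 (SE, adjusted p = 0.984) in the authors' deposited table, and its interval ran from -0.08 to 0.21. These are the 2 best-measured ligands, and neither was distinguishable from no difference. Nrg2, a ligand of both ErbB3 and ErbB4, had 0.24 ± 0.13 (SE, adjusted p = 0.768) in the authors' deposited table. The interval of Nrg2, from -0.03 to 0.50, covers 0.

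Nrg4, a ligand of ErbB4 that is known from brown fat and from the growth of cortical pyramidal neurons, was the only member with a negative sign. The authors' deposited table gave -0.54 ± 0.27 (SE), at p = 0.0490 before and 0.647 after adjustment. Its interval ran from -1.07 to -0.0023. Nrg4 was measured at a mean count of only 40.5 in the authors' deposited table, close to the lowest mean count that received an adjusted p-value, 34.9.

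Of the receptors, Erbb4 was the most precisely measured. The authors' deposited table gave 0.13 ± 0.07 (SE), at p = 0.0562 before and 0.679 after adjustment. Its interval, from -0.0034 to 0.26, corresponds to a ratio between 0.998 and 1.2. Egfr, the receptor of EGF and its relatives, had 0.05 ± 0.11 (SE, adjusted p = 0.999) in the authors' deposited table. Erbb2, the partner without a ligand, had 0.40 ± 0.30 (SE, adjusted p = 0.906) in the authors' deposited table. The interval of Egfr ran from -0.16 to 0.26 and that of Erbb2 from -0.18 to 0.98, so the data bound the difference of Egfr tightly and that of Erbb2 loosely.

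Erbb3 had the highest fold change of the 8. The authors' deposited table gave 0.76 ± 0.35 (SE), at p = 0.0282 before and 0.540 after adjustment. The ratio was 1.70, with a 95% confidence interval from 1.06 to 2.72, or 0.08 to 1.44 on the log2 scale. The interval does not cover 0 on that scale, but it rests on the normal distribution and is not adjusted for the number of genes, and Erbb3 did not pass the test.

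**Figure D2:**
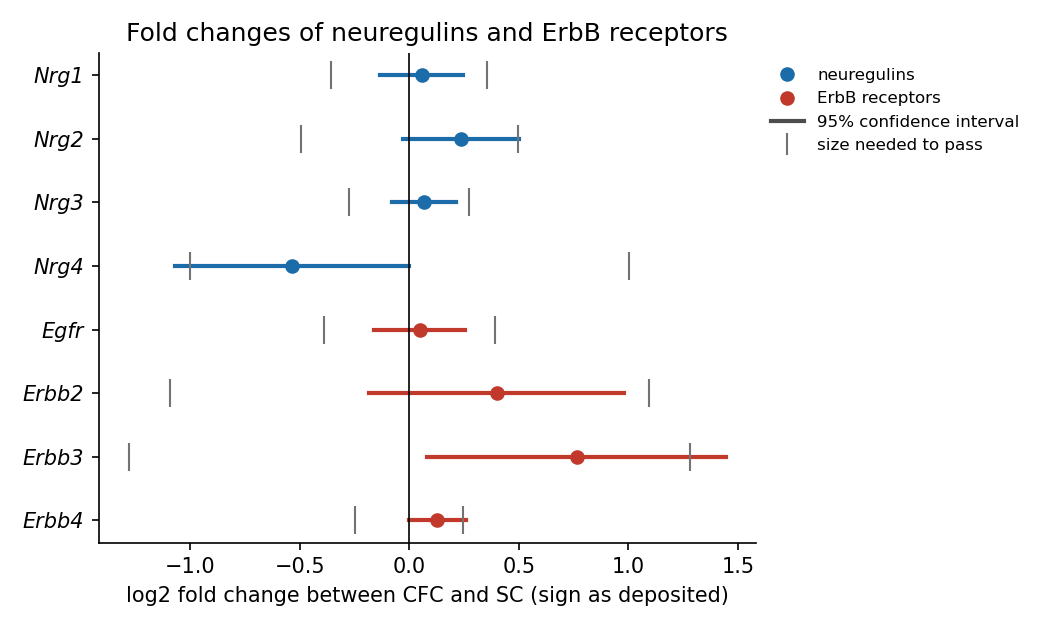
Log2 fold change between CFC and SC with its 95% confidence interval for each gene, signs as deposited. Grey ticks mark the difference that each gene would have needed, at its standard error, to pass the adjusted threshold. Every point lies inside its ticks, and only the normal intervals of Nrg4 and Erbb3 do not cross 0.

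The size of the estimate needed to pass varied from gene to gene, and power was not computed. The largest unadjusted p-value that still passed in the authors' deposited table was 2.30e-04, a Wald statistic of 3.68. At its standard error, Erbb4 would have needed a 1.19-fold difference to reach that statistic, Nrg3 one of 1.21-fold, Nrg1 one of 1.28-fold and Egfr one of 1.31-fold. For Nrg2 the size needed was 1.41-fold. Nrg4 would have needed 2.0-fold, Erbb2 2.13-fold and Erbb3 2.43-fold. For 5 of the 8 members (Nrg1, Nrg2, Nrg3, Egfr and Erbb4) the whole 95% interval lay within a 1.5-fold change in either direction, as it did for 87.9% of all genes with an adjusted p-value. For Nrg4, Erbb2 and Erbb3 an estimate of 1.5-fold would not have passed at this precision.

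Erbb3 differed from the other imprecise members in how its error compared with genes of like abundance. The standard error of Erbb3 was 2.27 times the running median of genes nearest to it in mean count. The same ratio was between 0.943 and 1.11 for the other 7 members, so only Erbb3 stood off the trend of error with abundance. From the standard error, the mean count and the numbers of libraries, a coefficient of variation between libraries of a group was computed, on the assumption of equal library sizes. It was 31.6% for Erbb3, of which counting alone would give 8.01%. Counting made up 6.44% of the variance of Erbb3, beside 40.5% for Nrg4 and 35% for Erbb2. Beyond counting, the coefficient of variation was 30.5% for Erbb3, 19.1% for Nrg4, 21.7% for Erbb2 and between 5.77% and 9.79% for the other 5 members. Dispersions of a DESeq2 fit are drawn toward a common trend, so these values describe the fit rather than the raw spread.

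**Figure D3:**
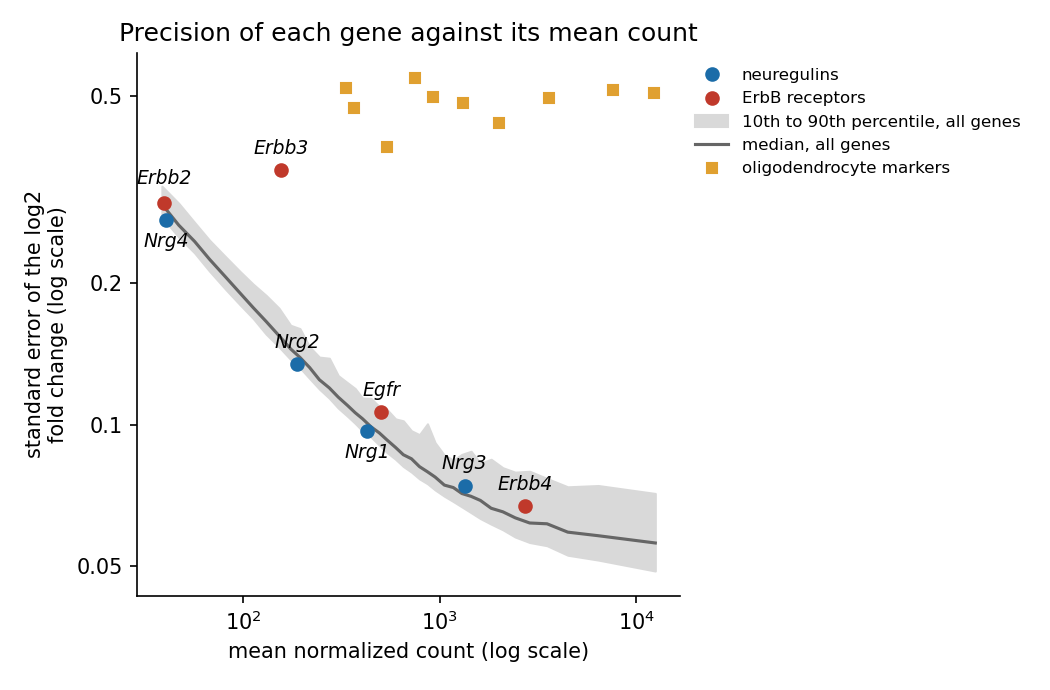
Standard error of the log2 fold change against mean normalized count, both on log scales. The grey band holds the 10th to 90th percentile of all genes with an adjusted p-value, and orange squares are 10 oligodendrocyte markers. Erbb3 lies above the band, between the other members and the markers.

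Markers of cell types that express these genes were set beside them. These lists were written with earlier results of these data known, so shared signs within a list describe the data and test nothing. All 10 oligodendrocyte markers, genes of mature myelinating cells, had a positive log2 fold change, from 0.95 to 1.67 with a median of 1.2. Where 8.10% of all genes tested had an unadjusted p-value under 0.05 (Wald test), all 10 did, but none passed the adjusted threshold. Their mean counts ran from 331 to 12290 in the authors' deposited table, and their standard errors were 4.19 to 8.92 times those of genes of similar mean count. Mbp, a main protein of myelin, had 1.15 ± 0.51 (SE, adjusted p = 0.497) in the authors' deposited table. Mog, on the myelin surface, had 1.09 ± 0.47 (SE, adjusted p = 0.483) in the authors' deposited table. Erbb3 thus shared the sign and the wide error of this list, at a smaller size in both. These traits were not particular to the oligodendrocyte list. The 6 markers of striatal medium spiny neurons were all positive too, with error ratios from 1.25 to 3.92 and a median of 3.32. The ratio of Erbb3, 2.27, lies inside that range and below the range of the oligodendrocyte list. Of the 6 genes on the precursor list, 4 were positive and 2 negative, with a median of 0.11. Sox10, a transcription factor of the whole oligodendrocyte lineage and on that list, was the one most like Erbb3, and it was chosen here after its values were seen. The authors' deposited table gave it 0.60 ± 0.31 (SE, adjusted p = 0.642), an error 3.13 times the median near its mean count. Pdgfra, the receptor that marks precursors, had -0.04 ± 0.09 (SE, adjusted p = 0.999) in the authors' deposited table. The part of oligodendrocyte RNA in the value of Erbb3 was not tested.

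For Erbb4 the matching list is that of interneurons. Its 8 genes had mean counts from 277 to 4826 in the authors' deposited table. Of them 4 were positive and 4 negative, with a median of 0.0039, and none had an unadjusted p-value under 0.05. Gad1 had -0.01 ± 0.07 (SE, adjusted p = 0.999) in the authors' deposited table. Pvalb, the calcium-binding protein of parvalbumin cells, had -0.23 ± 0.30 (SE, adjusted p = 0.991) in the authors' deposited table. Medium spiny neurons of the striatum also make Erbb4, and all 6 of their markers were positive, from 0.33 to 1.95. They had mean counts from 76.0 to 959 in the authors' deposited table. Of the 6, 5 had an unadjusted p-value under 0.05 (Wald test), against 8.10% of all genes tested. Drd1 alone among them passed the adjusted threshold, as did 0.513% of all genes tested. Its value was 0.76 ± 0.13 (SE, adjusted p = 3.66e-05) in the authors' deposited table. Whether these 6 genes mark striatal cells in this cortical tissue was not tested, nor was the part of striatal RNA in the value of Erbb4.

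Some markers of cortical layers passed the test. Over all genes tested, 0.513% passed the adjusted threshold. Of 6 deep-layer markers, all were positive and 5 passed it (Ccn2, Nxph4, Foxp2, Hs3st4 and Tle4). Of 5 upper-layer markers, all were negative and 2 passed (Rasgrf2 and Otof). Their median log2 fold changes were 0.61 and -0.31. The 5 excitatory neuron markers, which define cortical tissue, had mean counts from 2316 to 106077 in the authors' deposited table. Of these 3 were positive and 2 negative, and Camk2a passed, at -0.29 ± 0.06 (SE, adjusted p = 0.00151) in the authors' deposited table. Tbr1, a transcription factor of deep-layer neurons, had 0.22 ± 0.07 (SE), at p = 0.00208 before and 0.170 after adjustment in the authors' deposited table. The median of the 5 was 0.0011, and Slc17a7 had -0.03 ± 0.05 (SE, adjusted p = 0.994) in the authors' deposited table. Of the 5 astrocyte markers 2 were positive, and the 4 microglial and 3 endothelial markers were all negative, with medians of -0.0081, -0.13 and -0.16 and none past the adjusted threshold. Of the choroid plexus list only Kl had an adjusted p-value, at 0.59 ± 0.22 (SE, adjusted p = 0.322) in the authors' deposited table. Ttr, on the same list, had 1.86 ± 1.11 (SE) at a mean count of 67.0 there, without a p-value. The part of layer sampling in the members' values was not tested.

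**Figure D4:**
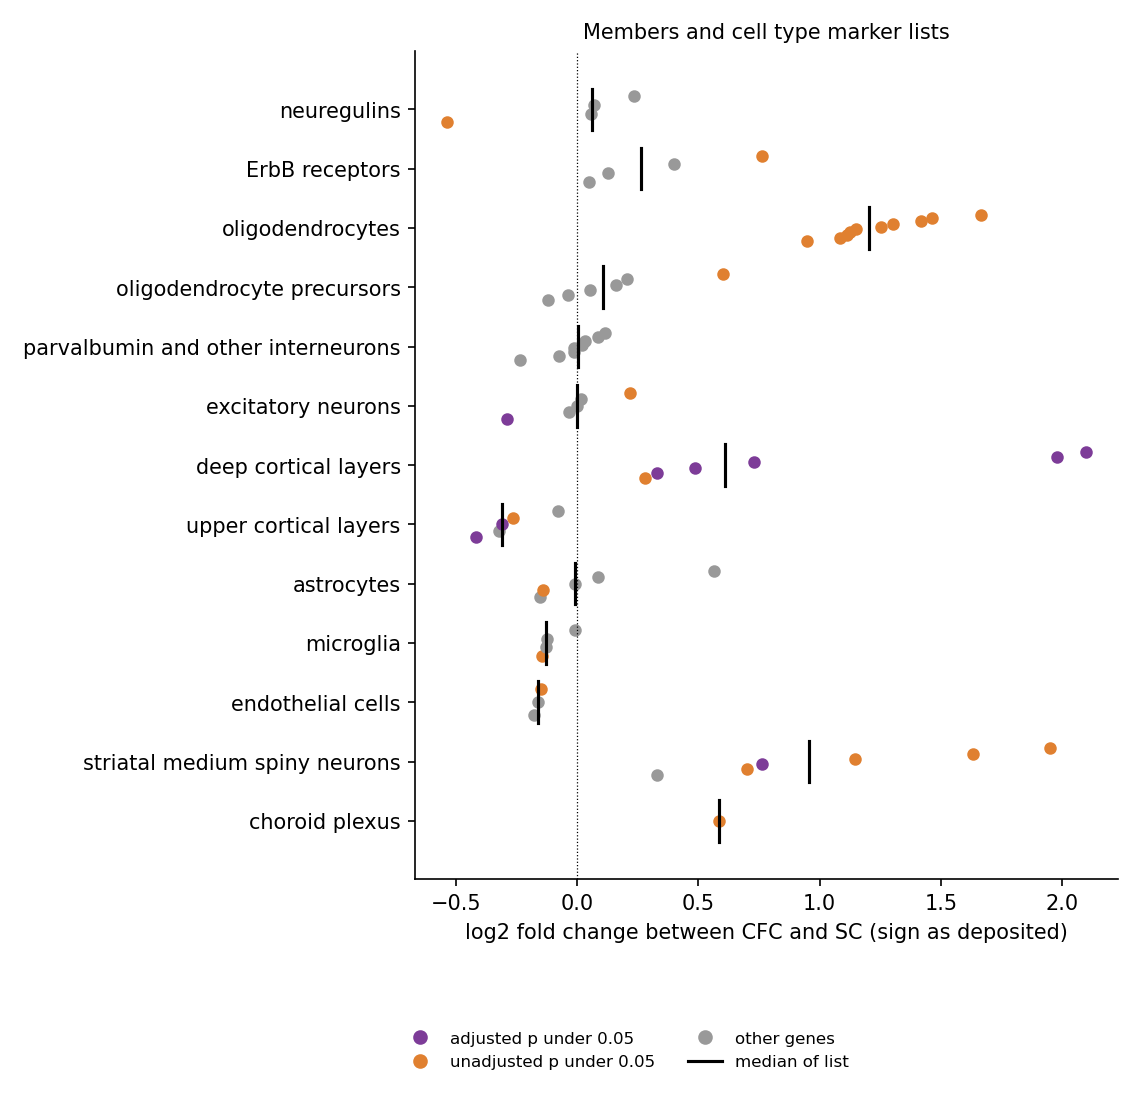
Log2 fold changes (sign as deposited) of the neuregulins, the ErbB receptors and 11 lists of cell type markers, 1 point per gene with an adjusted p-value, and the median of each list as a bar. Erbb3 sits to the left of the oligodendrocyte markers, whose median is 1.2, and the interneuron list lies around 0.

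The wider pathway was described with 7 lists of 77 genes, of which 75 were listed and 70 had an adjusted p-value. None of the 70 passed the adjusted threshold in the authors' deposited table (DESeq2's Wald test), in either direction. An unadjusted p under 0.05 was found for 4 positive and 5 negative genes, where the shares over all genes tested were 4.56% and 3.54%. Together these 9 genes are 12.9% of the 70. With the t distribution none was left under 0.05, and after the regression 5 were. The median log2 fold change over the 70 was 0.01.

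The EGF receptor has ligands among the other members of the EGF family. Of 7 such genes, Areg and Ereg were not analysed here. In the authors' deposited table Btc averaged 13.1 counts and Epgn 1.65, below the level that received an adjusted p-value. Tgfa, Hbegf and Egf had levels of 48.4, 26.0 and 4.57 normalized counts per kilobase by summed exons, and 69.4, 43.5 and 10.8 by the longest transcript. Tgfa, which had the highest level of them, had 0.34 ± 0.26 (SE, adjusted p = 0.906) in the authors' deposited table. None of the 3 tested ligands had an unadjusted p-value under 0.05.

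Cspg5, a transmembrane proteoglycan with an EGF-like domain that has been reported to bind ErbB3, was far more abundant than any neuregulin, at 707 normalized counts per kilobase by summed exons and 906 by the longest transcript. The authors' deposited table gave -0.10 ± 0.05 (SE), at p = 0.0417 before and 0.616 after adjustment. The related Tmeff1 and Tmeff2 were at 0.02 and 0.07. Of the proteases that cut neuregulin precursors or their stubs, 4 of 9 were positive and 5 negative. Adam10, which had the highest mean count of them, had 0.10 ± 0.06 (SE, adjusted p = 0.823) in the authors' deposited table. Bace1, the beta-secretase that processes Nrg1, had 0.07 ± 0.07 (SE, adjusted p = 0.979) in the authors' deposited table. Adam19, a metalloprotease that has been reported to shed Nrg1, had -0.18 in the authors' deposited table, at p = 0.0493 before and 0.647 after adjustment. Annotated exons of Adam19 overlap 2 antisense genes, Gm16033 and Gm16034.

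Of 10 inhibitors and ubiquitin ligases of the receptors, 6 were positive and 4 negative, between -0.07 and 0.15. Cbl, a ligase that marks the active EGF receptor for degradation, had 0.15 ± 0.07 (SE, adjusted p = 0.613) in the authors' deposited table. Nedd4, a ligase that acts on ErbB4 and many other proteins and had the highest mean count of the list, had 0.11 ± 0.05 (SE, adjusted p = 0.647) in the authors' deposited table. Rnf41, which removes ErbB3, had -0.03 (adjusted p = 0.999) in the authors' deposited table. Errfi1, an inhibitor of the receptor kinases, had -0.02 (adjusted p = 0.999) in the authors' deposited table. The errors of Rnf41 and Errfi1, 0.08 and 0.09 in the authors' deposited table, are small enough to place both within a 1.5-fold change.

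Among adaptors and scaffolds, 12 of 16 were positive. Dlg4, the postsynaptic scaffold PSD-95 that binds ErbB4, had the highest mean count of the list and stood at -0.11 ± 0.05 (SE, adjusted p = 0.442) in the authors' deposited table. Sos1, which loads Ras with GTP, had 0.16 ± 0.07 (SE, adjusted p = 0.445) in the authors' deposited table. Grb2, the adaptor that brings Sos1 to the receptors, had 9.70e-04 ± 0.06 (SE) in the authors' deposited table. In the PI3K-Akt list, 8 genes were positive and 8 negative. Gsk3b, a kinase held in check by Akt and the gene of that list with the highest mean count, had 0.15 (adjusted p = 0.467) in the authors' deposited table. Its close relative Gsk3a had -0.13 (adjusted p = 0.551) in the authors' deposited table, and 28.3% of its annotated exon bases overlap the antisense gene 9130221H12Rik. Akt2 had -0.17 (adjusted p = 0.487) in the authors' deposited table. In the Ras-MAPK and Stat list, 6 of 13 genes were positive and none had an unadjusted p-value under 0.05.

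**Figure D5:**
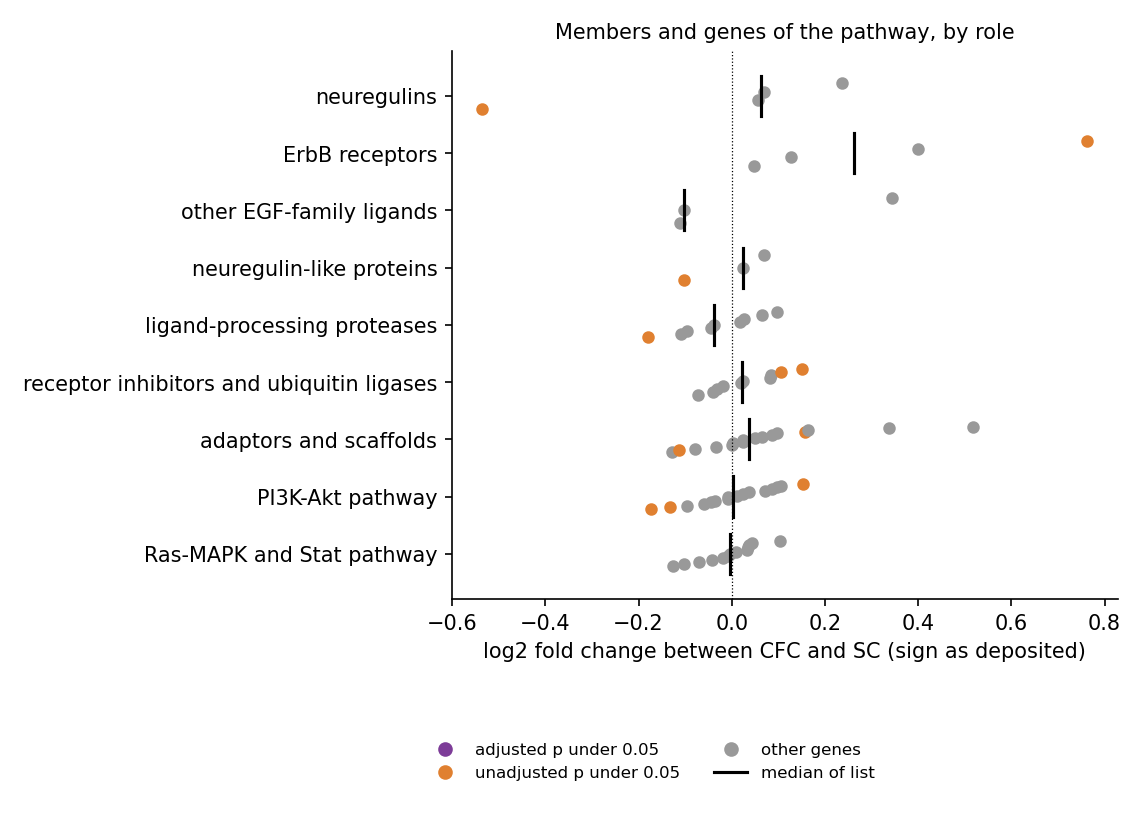
Log2 fold changes (sign as deposited) of the neuregulins, the ErbB receptors and 7 lists of pathway genes, 1 point per gene with an adjusted p-value, and the median of each list as a bar. No point passed the adjusted threshold, and most pathway genes sit closer to 0 than Nrg4, Erbb2 and Erbb3.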

How the data were processed

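Per the labels' protocols, polyadenylated RNA libraries were made with the KAPA mRNA HyperPrep kit from 100 ng of RNeasy-purified RNA. Per the submitters' processing notes, Trimmomatic, Subread and DESeq2 were used with mm10. Versions, annotation and strand setting are not given in the sources used here. The authors deposited 1 table with, per the file headers, a mean normalized count (a signal averaged over libraries), a log2 fold change, its standard error on the log2 scale, a Wald score and p-values before and after adjustment, per gene. The Wald score equalled the log2 value over its error in all 17732 genes, and the p-value its two-sided normal probability in all 17729 with one (tolerance 1e-06). Raw counts were not analysed here, so the authors' deposited DESeq2 p-values, adjusted over all genes, are the test, with a threshold of 0.05, as fixed for that case.

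From these, 95% normal intervals, counts per kilobase, error ratios and alternatives were computed in Python 3.11.15 with numpy 2.4.6, scipy 1.17.1 and pandas 2.3.3. Only the normal, t and fold-null tests, their adjustment and the regression step were checked on simulated data. GENCODE M21 held 17726 of the 17732 gene IDs. The members and all lists were chosen with earlier results of these data known. Named genes are the 8 members, pathway genes under an adjusted or unadjusted p-value of 0.05, the gene with the highest mean count of each list, marker genes under an adjusted 0.05 and 6 reference markers. Areg, Ereg, Btc, Epgn, Hbegf, Egf, Tmeff1, Tmeff2, Bace1, Rnf41, Errfi1, Grb2, Kl, Ttr, Tbr1 and Sox10 were added after their values were seen, as were Erbin, Gab1 and Lamp5 in the closing section. Some genes that this rule names are not reported here.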

Additional observations from a re-analysis of the deposited data

How the results depend on the processing

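No paired analysis was possible because the table analysed here holds 1 mean and 1 comparison per gene and no values of single libraries, so the replicate block was not run, and leaving out single libraries was not run for the same reason, so whether 1 library decides a value was not tested. No member and no pathway gene passed with a threshold of 0.1, with no filter on the mean count or by Bonferroni. None passed when the adjustment was redone across all 13060 genes tested, a set not limited to the members and lists. None passed against a null of at most 1.2-fold or with a t distribution of 5 degrees of freedom. The same held after centring on the median fold change. It also held after regression of the Wald score on length, GC content and abundance, which was added after the data were seen. Members' adjusted p-values ranged from 0.503 to 1 over these alternatives. The 2 members and 9 pathway genes with an unadjusted p-value under 0.05 became 0 and 0 against the 1.2-fold null and 0 and 0 with the t distribution, both stricter by construction. After the regression there were 2 members, Nrg2 and Nrg4 in place of Erbb3 and Nrg4, and 5 pathway genes; the cause was not tested. The sign of Egfr, near 0 throughout, turned negative after the regression (adjusted p-value 0.999). Error ratios of all 8 members stayed within 1.5 times under both alternatives. Levels per kilobase moved by more than that for 3 of 8 genes (Nrg1, Nrg3 and Nrg4) with the longest transcript.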

Other observations

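A few pathway genes shared the wide error of Erbb3, and they are named here after their values were seen. Erbin, a scaffold that binds ErbB2, had 0.34 ± 0.23 (SE, adjusted p = 0.859) in the authors' deposited table. Gab1, a docking protein downstream of the receptors, had 0.52 ± 0.30 (SE, adjusted p = 0.769) in the authors' deposited table. Together with Tgfa, these were the 3 of 70 tested pathway genes whose error was more than 2 times the median near their mean count. The share of all genes above that ratio was not computed, so whether this count is unusual cannot be told. The ratios were 3.24 for Erbin, 2.85 for Gab1 and 2.27 for Tgfa, and all 3 had a positive sign, as Erbb3 had. What these genes share was not tested. A wide error did not always go with a positive sign. On the marker lists Lamp5 (-0.32, ratio 2.96) and Pvalb (-0.23, ratio 2.52) were negative. The other marker genes tested with a ratio above 2 were positive, among them all 10 oligodendrocyte markers.

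A pair of close relatives in the pathway differed in sign. Gsk3a was negative and Gsk3b positive, and the difference between them was not tested. Over all genes, the sign of the fold change went with base composition and length. The median log2 fold change was 0.02 in the tertile of genes with the lowest GC content (58.3% positive) and -0.02 in the tertile with the highest (41.3% positive). By length of the longest transcript the medians were -0.02 in the shortest tertile and 0.02 in the longest. The longest transcript of Gsk3a has 59.8% GC and that of Gsk3b 46.1%, and those of Erbb4 and Nrg2 have 40.6% and 63.4%. The unadjusted p-value of Erbb4 was 0.177 and that of Erbb3 0.0538 once length, GC content and abundance had been regressed out, and that of Nrg2 was 0.0396. After the same regression Gsk3b remained among the genes with an unadjusted p-value under 0.05 and Gsk3a did not. The part of base composition and length in the values of these genes was not tested.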
